A study of Mus musculus with 2 samples.

Results

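Protease inhibitors of myeloid cells were followed by single-cell RNA sequencing of cells that had infiltrated colorectal polyps of mice. The 8 genes were chosen by name, with earlier results of these data known. All 8 were among the 32285 genes counted in both libraries. They are *Slpi* and *Wfdc17*, which encode small secreted proteins with WAP domains, *Cstdc4*, *Stfa2l1* and *Cstb*, which encode cytosolic stefins, *Cst3*, which encodes the secreted cystatin C, and *Serpinb1a* and *Serpinb2*, which encode intracellular serpins. C57BL6/J mice labelled as 26 weeks old had received azoxymethane (AOM), a carcinogen, followed by dextran sodium sulfate (DSS) at 1% in 3 cycles, which inflames the colon, and polyps were taken 16 weeks after AOM. Both genotypes received AOM and DSS, so neither library holds untreated tissue. Sorted CD11b+ and CD11c+ cells came from several wild-type (WT) mice, pooled as 1 library, and from several pooled *Clec7a*-/- (KO) mice, which lack the β-glucan receptor Dectin-1, as another.

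Proteases that neutrophils and macrophages release or hold in lysosomes are kept in check by such inhibitors. WAP-domain proteins and clade B serpins mainly block serine proteases such as neutrophil elastase and cathepsin G, whereas stefins and cystatins block papain-like cysteine proteases such as cathepsins B, L and S. Stefin A copies form a cluster of genes that is expanded in mice, and they are known as abundant transcripts of mouse neutrophils. Cystatin C is known as an abundant transcript of dendritic cells (DCs).

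The WT library held 15869215 UMIs (unique molecular identifiers, each marking 1 captured transcript) in 3467 cell barcodes and the KO library 11808230 UMIs in 3080 barcodes, and 17 barcode sequences occurred in both. A filter on 200 to 4000 genes per cell and on a mitochondrial share of up to 5% left 2696 WT and 1999 KO cells. The sort was not pure, since T-cell-like cells made up 2.41% of the WT and 6.05% of the KO cells. The cells kept formed 15 clusters, drawn without the 8 genes and without the related inhibitors and proteases, and clusters were named from marker genes. Cluster 4 carried 10 of 15 neutrophil markers but had no such marker among its 10 leading genes. Its medians were 1105 (WT) and 910 (KO) UMIs per cell, against 3412.5 and 2671 over all cells kept. The limit on depth, given with the processing below, was met narrowly in WT and was missed narrowly in KO. Meeting it in either library was enough, so the cluster was left without a cell type and is called the shallow cluster. Cluster 7 carried 9 neutrophil and 6 monocyte markers and is called the mixed cluster. Each genotype has 1 library, so there are no replicates and no test was made. Every interval is an exact 95% interval for counting error only, and a gene is said to be past the fold where it had at least 100 UMIs in both libraries together and its levels differed 2-fold or more. Levels are counts of the gene scaled to 1000000 UMIs of the same cells (CPM), and log2 ratios set KO over WT. Levels were compared within a gene and not between genes.

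Among the 7 classes with at least 50 cells in each library, the 4 genes *Slpi*, *Wfdc17*, *Cstdc4* and *Stfa2l1* had their highest levels in the neutrophil-like cluster of both libraries, *Cstb* was spread over all myeloid classes, *Cst3* and *Serpinb1a* were highest in DC-like cells, and *Serpinb2* in the mixed cluster and monocyte-like cells. Over all cells, the first 4 genes were past the fold and lower in the KO library, and none of the 8 was past the fold and higher. Of 8470 genes with at least 100 UMIs, 1.74% were past the fold and lower in KO and 2.42% higher. The median log2 ratio was -1.07 over the 8 genes and 0.13 over the 8470 genes. Since the 8 genes were chosen with earlier results of these data known, such comparisons with all genes are descriptions only. Within the neutrophil-like cluster none of the 6 genes with at least 100 UMIs was past the fold in either direction, where 3.5% of 1770 genes were lower and 2.37% higher, and the median log2 ratio was -0.15 over the 6 genes and -0.02 over the 1770.

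**Figure D1:**
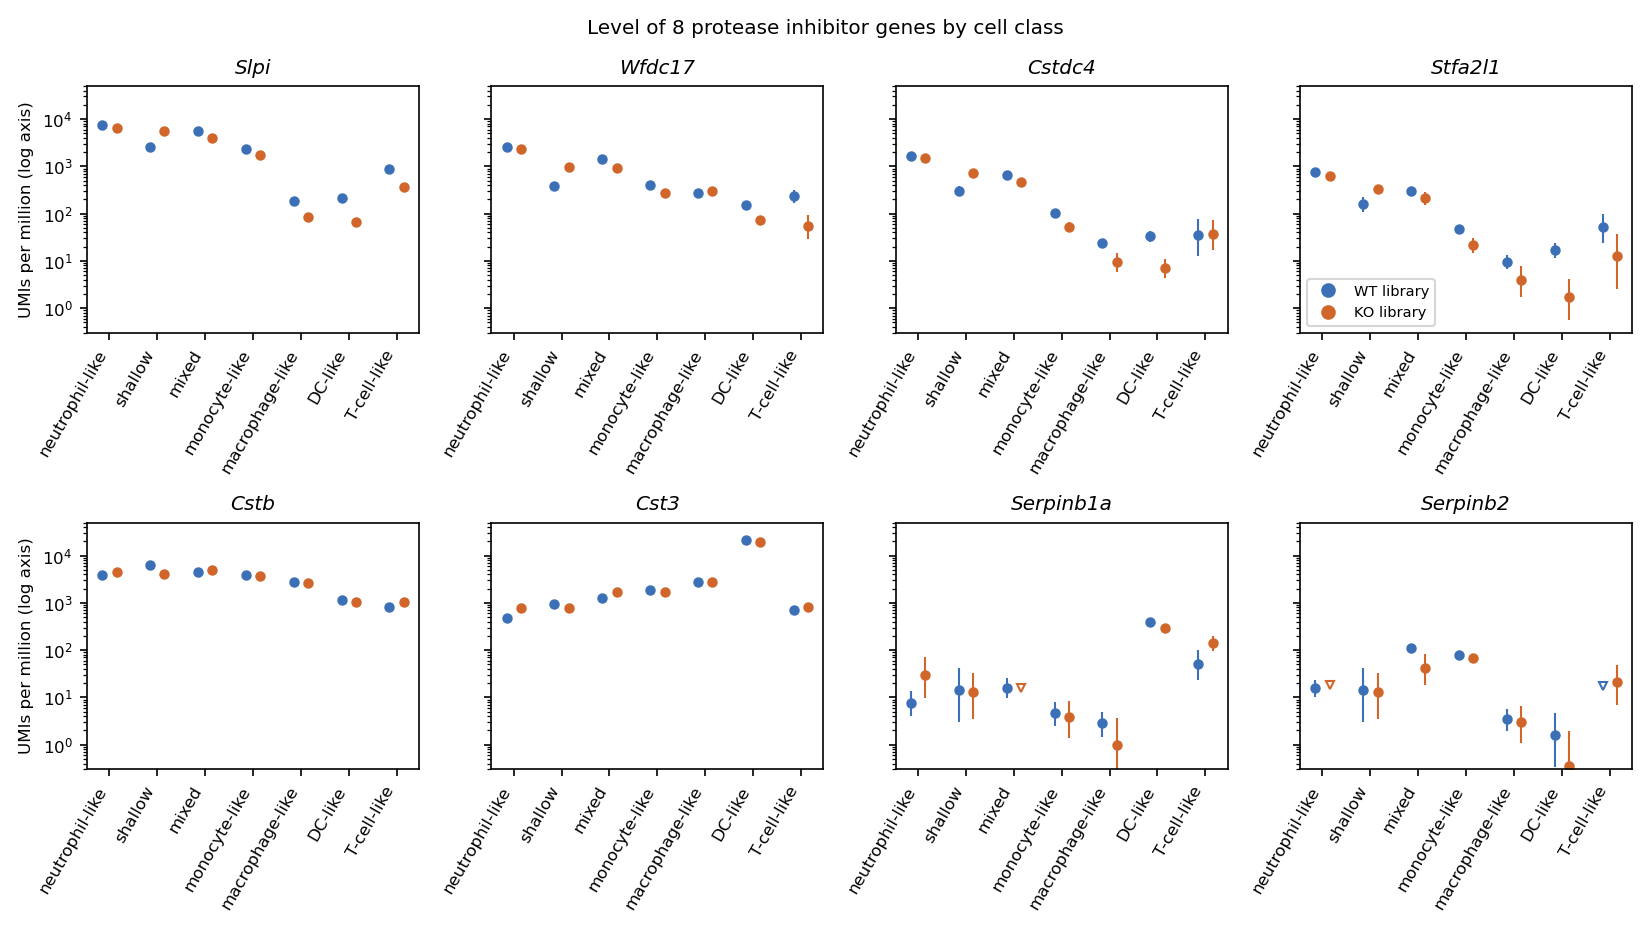
Level of each gene (CPM, log axis) in 7 cell classes, with the WT library in blue and the KO library in orange, and exact 95% Poisson intervals. Open triangles stand at the level of 3 UMIs where none was counted. *Slpi*, *Wfdc17*, *Cstdc4* and *Stfa2l1* stood highest in neutrophil-like cells of both libraries, and *Cst3* and *Serpinb1a* in DC-like cells.

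*Slpi* encodes secretory leukocyte peptidase inhibitor, which blocks neutrophil elastase and cathepsin G (GRCm38, chromosome 2, 164354070 to 164389095, minus strand). Over all cells its level was 2145 CPM in WT and 904 CPM in KO, a log2 ratio of -1.25 (-1.29 to -1.21). In the neutrophil-like cluster it was 7463 CPM (7327 to 7600) in WT and 6505 CPM (6121 to 6907) in KO, a log2 ratio of -0.20 (-0.29 to -0.11). These 2 intervals did not overlap, but the levels were far from a 2-fold difference. After each cell was thinned to 1000 UMIs, 98.8% of 506 WT cells and 100% of 85 KO cells of this cluster held at least 1 *Slpi* UMI (exact lower limits of the 95% intervals 97.4% and 95.8%). The thinned cells had a median of 7 *Slpi* UMIs (quartiles 4 and 10) in WT and 5 (3 and 7) in KO, so *Slpi* was found in nearly every neutrophil-like cell of both libraries. Without thinning, a neutrophil-like cell held on average 22.7 *Slpi* UMIs in WT and 12.3 in KO, at medians of 2785 and 1808 UMIs of all genes per cell.

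Among the 7 classes, the order of *Slpi* levels in WT after the neutrophil-like cluster was the mixed cluster at 5591 CPM, the shallow cluster at 2515 CPM, monocyte-like cells at 2271 CPM, T-cell-like cells at 869 CPM, DC-like cells at 211 CPM and macrophage-like cells at 182 CPM. The intervals of the shallow cluster and monocyte-like cells overlapped, as did those of DC-like and macrophage-like cells. In KO the shallow cluster, at 5612 CPM, stood above the mixed cluster, at 3913 CPM, and monocyte-like cells followed at 1739 CPM. Among monocyte-like cells *Slpi* belonged to cluster 0, which is led by *Ly6c2* and *Chil3*, with 4079.8 CPM in WT and 3405 CPM in KO. Cluster 2, led by *Ccl24*, *Mmp19* and *Arg1*, had 893 and 529.7 CPM. T cells are not known to make *Slpi*, so the T-cell-like cluster was used as the measure of free RNA, and there 28.6% of 56 thinned WT cells and 14.3% of 91 thinned KO cells held a *Slpi* UMI. *Slpi* was uneven there, with a mean of 0.946 and a maximum of 9 UMIs per thinned WT cell, and 0.363 and 7 in KO. Doublets were not removed, so this level may hold more than free RNA, and their part was not tested. In DC-like cells the share was 13.2% in WT and 5.42% in KO, and in macrophage-like cells 13.7% and 4.38%. These shares lie below those of the T-cell-like cluster, so no level above background is read from them. The B- or plasma-cell-like cluster, with 11 WT and 21 KO cells, had 1115 CPM of *Slpi* in WT and 2078 CPM in KO. This interval overlapped that of the T-cell-like cluster in WT and lay above it in KO, so the T-cell-like level is not an upper limit for background. The median depths were 2107 and 1552 UMIs in T-cell-like cells, and between 4100 and 7866 UMIs in DC-like and macrophage-like cells.

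*Wfdc17* encodes a single WAP-domain protein of activated macrophages and neutrophils (chromosome 11, 83703991 to 83706268, plus strand). Over all cells its level was 683 CPM in WT and 282 CPM in KO, a log2 ratio of -1.28 (-1.35 to -1.21). In neutrophil-like cells it was 2592 and 2357 CPM, a log2 ratio of -0.14 with an interval that includes 0 (-0.29 to 0.01). A UMI of *Wfdc17* was found in 76.7% of thinned WT and 64.7% of thinned KO neutrophil-like cells, against 10.7% and 6.59% of T-cell-like cells. Macrophage-like cells had 270.5 CPM and 22.0% of thinned cells with a UMI in WT, and 297 CPM and 26.6% in KO, a log2 ratio of 0.14 (-0.01 to 0.28). The level in T-cell-like cells was 236 CPM in WT, which overlapped that of macrophage-like cells, and 54.8 CPM in KO, which did not, so macrophage-like cells stood above this background in the KO library. In WT the order ran from the neutrophil-like to the mixed cluster (1414 CPM), monocyte-like cells (406 CPM) and the shallow cluster (382 CPM), and the last 2 of these overlapped.

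The stefins *Cstdc4* and *Stfa2l1*, known as inhibitors of cathepsins in the cytosol, lie 22258 bases apart in a run of stefin genes on chromosome 16, and the 10 listed members of this run span 36119946 to 36455392. Their coding sequences were 82.5% identical to each other and 62.8% and 61.5% identical to that of *Cstb*. The stretches below, of 90 coding bases each and read 5′ to 3′ from GENCODE M21 transcripts on GRCm38, show how alike the copies are, which bears on how well reads can be told apart. Capitals mark, in *Cstdc4*, the 5 codons of the QxVxG motif, the conserved loop with which cystatins enter the active site of a protease, and in the others every base that differs from *Cstdc4*. Each stretch spans an intron, and on the genome they cover chr16:36186397-36187934 (*Cstdc4*, plus), chr16:36255574-36257267 (*Csta2*, plus), chr16:36159979-36161767 (*Stfa2l1*, plus), chr16:36404132-36405198 (*Stfa2*, minus) and chr10:78426960-78427331 (*Cstb*, plus).
Cstdc4: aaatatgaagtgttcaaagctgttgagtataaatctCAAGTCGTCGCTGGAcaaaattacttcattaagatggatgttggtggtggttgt
Csta2: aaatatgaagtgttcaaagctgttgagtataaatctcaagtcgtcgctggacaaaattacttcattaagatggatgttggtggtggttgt
Stfa2l1: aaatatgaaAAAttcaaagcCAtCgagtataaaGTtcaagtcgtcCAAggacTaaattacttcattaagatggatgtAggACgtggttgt
Stfa2: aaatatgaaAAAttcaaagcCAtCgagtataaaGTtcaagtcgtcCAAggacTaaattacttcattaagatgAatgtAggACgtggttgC
Cstb: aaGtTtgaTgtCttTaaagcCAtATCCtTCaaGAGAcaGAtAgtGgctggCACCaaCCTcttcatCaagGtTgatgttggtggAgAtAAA
*Csta2* did not differ from *Cstdc4* at any of these bases, whereas *Stfa2l1* differed at 15, *Stfa2* at 17 and *Cstb* at 36. Of the 351 stretches of 50 bases in the last 400 bases of each transcript, where 3′ reads fall, *Cstdc4* shared 37.0% with *Csta2* and *Stfa2l1* shared 17.7% with *Stfa2*, and neither shared any with the other 9 stefins compared. The counts of *Cstdc4* and *Stfa2l1* are therefore uncertain where reads of these copies could not be separated. *Csta2* was counted with 11.9 CPM in WT and 22.5 CPM in KO over all cells and *Stfa2* with 60 UMIs in both libraries together. *Csta2* also differed from *Cstdc4* in where it was found, since its level was highest in DC-like cells (40.7 and 52.6 CPM).

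*Cstdc4* (36184212 to 36188111, plus strand, named *Gm5483* in GENCODE M21) was at 317 CPM in WT and 91.5 CPM in KO over all cells, a log2 ratio of -1.79 (-1.91 to -1.67). *Stfa2l1* (36156811 to 36161953, plus strand) was at 144 and 40.0 CPM, a log2 ratio of -1.85 (-2.03 to -1.67). These were the lowest ratios of the 8 genes. In neutrophil-like cells *Cstdc4* was at 1670.3 CPM in WT and 1486 CPM in KO, a log2 ratio of -0.17 (-0.36 to 0.02), and *Stfa2l1* at 746 and 639.6 CPM, a log2 ratio of -0.22 (-0.53 to 0.07). Both intervals include 0. With the shallow cells added to this class, the log2 ratios were -0.61 (-0.76 to -0.47) for *Cstdc4* and -0.62 (-0.83 to -0.40) for *Stfa2l1*. They were -0.69 (-0.81 to -0.57) for *Wfdc17* and -0.22 (-0.28 to -0.16) for *Slpi*, and none of these intervals includes 0. In the shallow cluster alone the ratios were positive, at 1.25, 1.08, 1.34 and 1.16 in the same order. The merged class differed in makeup between the libraries. Its neutrophil-like part held 12.6% of all UMIs in WT and 2.17% in KO, and its shallow part 1.68% and 4.15%. The part of this makeup in the merged ratios was not tested. A *Cstdc4* UMI was found in 56.1% of thinned WT and 45.9% of thinned KO neutrophil-like cells, and a *Stfa2l1* UMI in 39.3% and 32.9%. In macrophage-like, DC-like and T-cell-like cells no more than 4.40% of thinned cells held either. The neutrophil-like cluster held 66.2% of all *Cstdc4* UMIs and 65.3% of all *Stfa2l1* UMIs of the WT library, although it held 12.6% of all UMIs. In the KO library it held 35.3% and 34.8% of them, and 2.17% of all UMIs.

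The pair was not spread evenly over neutrophil-like cells. *Cstdc4* ranged from 0 to 18 UMIs per thinned WT cell and from 0 to 20 per thinned KO cell, while its medians were 1 and 0. In WT, *Stfa2l1* was found in 140 of 284 thinned cells with a *Cstdc4* UMI (49.3%) and in 59 of 222 without one (26.6%). In KO these were 16 of 39 (41.0%) and 12 of 46 (26.1%). All cells were thinned to the same depth, and the shares are given as a description.

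The windows below hold the 250 bases before the RefSeq start of *Slpi* (chr2:164356508-164356757, minus), *Cstdc4* (chr16:36183962-36184211, plus) and *Stfa2l1* (chr16:36156561-36156810, plus) on GRCm38.p6. These genes shared their highest class, as did *Wfdc17*, whose window was searched but is not shown. Capitals mark, in *Slpi*, both matches to TTNNGNAAT, letters bound by C/EBP factors, which are known to act in granulocytes. In the stefins they mark the longest run of letters that both windows share.
Slpi: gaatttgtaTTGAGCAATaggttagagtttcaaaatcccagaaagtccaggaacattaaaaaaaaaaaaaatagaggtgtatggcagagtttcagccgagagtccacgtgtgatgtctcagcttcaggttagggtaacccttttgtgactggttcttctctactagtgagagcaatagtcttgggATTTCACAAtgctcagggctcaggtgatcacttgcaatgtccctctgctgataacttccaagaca
Cstdc4: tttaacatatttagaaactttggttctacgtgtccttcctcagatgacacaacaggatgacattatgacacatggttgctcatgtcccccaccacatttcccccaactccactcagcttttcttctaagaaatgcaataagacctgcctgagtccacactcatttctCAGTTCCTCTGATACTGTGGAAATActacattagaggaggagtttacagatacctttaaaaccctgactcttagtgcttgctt
Stfa2l1: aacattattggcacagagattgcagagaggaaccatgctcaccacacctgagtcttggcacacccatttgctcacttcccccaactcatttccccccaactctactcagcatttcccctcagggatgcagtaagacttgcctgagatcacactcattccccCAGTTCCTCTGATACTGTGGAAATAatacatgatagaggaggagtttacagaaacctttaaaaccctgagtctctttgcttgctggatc
The stefin windows were 77.8% identical over 239 aligned bases, and the shared run was 25 bases long, from -83 to -59 in *Cstdc4* and from -89 to -65 in *Stfa2l1*, counted from the start. The C/EBP letters were searched on both strands and were found in *Slpi* at -241 to -233 and at -65 to -57, in *Serpinb2*, and not in the windows of *Wfdc17*, *Cstdc4*, *Stfa2l1* or *Cst3*. Of 32851 promoter windows of this length, 10.2% held these letters. GAGGAAGT, letters bound by PU.1, was in 2.44% of the windows and in none of the 6 genes with a window. TTCNNNGAA, letters bound by STAT factors, was in 7.02% of the windows and in those of *Cstdc4* (-128 to -120) and *Serpinb2*. The TATA box letters TATAAA were in 12.4% of the windows and, of the 6 genes, in those of *Serpinb2*. A match is a match of letters only. *Cstb* and *Serpinb1a* were not among the windows used.

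**Figure D2:**
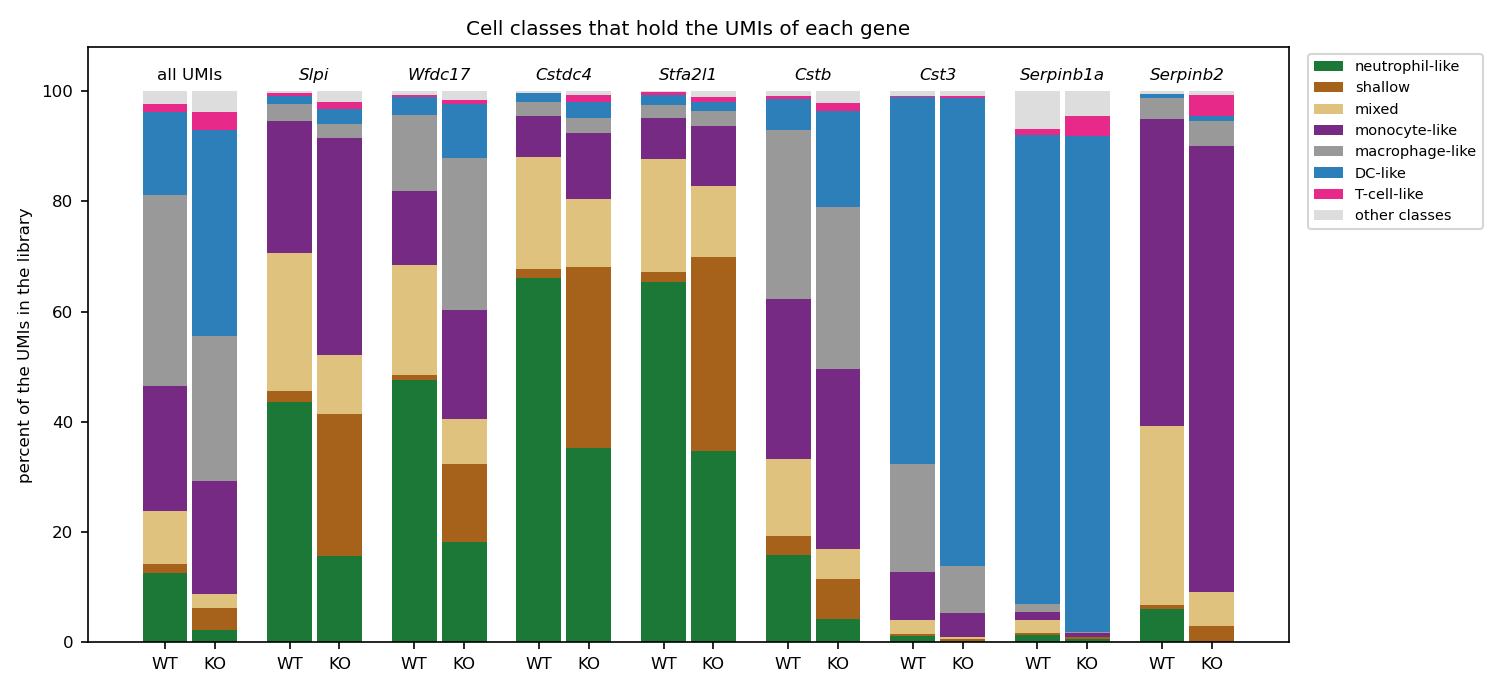
Percent of the UMIs of each gene, and of all genes, that lay in each cell class, with the WT and KO library side by side. The neutrophil-like cluster (green) held 43.7% of *Slpi* UMIs in WT and 15.6% in KO, and the shallow cluster (brown) 1.97% and 25.8%.

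The libraries also differed in makeup, and the part of this in the difference over all cells was not tested. Neutrophil-like cells were 508 of the WT cells (18.8%) and 87 of the KO cells (4.35%), the mixed cluster 10.2% and 3.30%, and DC-like cells 13.4% and 28.4%. The shallow cluster, which carried 10 of 15 neutrophil markers, went the other way, with 6.27% of WT and 15.8% of KO cells. The difference in neutrophil-like cells therefore depends on how the shallow cells are classed. Of the 14 neutrophil markers with at least 100 UMIs, out of 15 listed, 11 were past the fold and lower in KO over all cells, and the summed level of all 15 was 10809.6 CPM in WT and 3941 CPM in KO. None of the 15 was at 0. TMM scaling, which sets the bulk of genes equal, moved every log2 ratio over all cells down by 0.17, and *Serpinb2*, at -1.07, then joined the genes past the fold. When the KO levels of each class were weighted by the share of UMIs that the class had in WT, none of the 8 genes was past the fold. This weighting was run for the 8 genes only, so no share over all genes stands beside this count. The log2 ratio then was -0.31 for *Slpi*, -0.24 for *Wfdc17*, -0.28 for *Cstdc4*, -0.35 for *Stfa2l1*, -0.02 for *Cstb*, -0.11 for *Cst3*, -0.24 for *Serpinb1a* and -0.60 for *Serpinb2*. For *Cst3* and *Serpinb1a* the sign turned, since both were higher in KO over all cells. With the neutrophil-like and shallow clusters taken as 1 class, which was chosen after the values were seen, the ratios at WT shares were -0.36 for *Slpi*, -0.53 for *Wfdc17*, -0.65 for *Cstdc4* and -0.68 for *Stfa2l1*. With each cell classed by its largest marker score, they were -0.32, -0.48, -0.56 and -0.57 in the same order. When each cell counted equally in place of each UMI, 2 genes in place of 4 were past the fold over all cells, with log2 ratios of -1.08 for *Cstdc4*, -1.14 for *Stfa2l1*, -0.66 for *Slpi* and -0.99 for *Wfdc17*. No share over all genes was computed for this count or for that under TMM scaling. The KO library had 316 shallow cells and the WT library 169, and without them the 4 genes had log2 ratios of -1.61 (*Slpi*), -1.45 (*Wfdc17*), -2.30 (*Cstdc4*) and -2.40 (*Stfa2l1*) over all cells.

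The shallow cluster was the only one of the 7 classes compared in which any of the 8 genes was past the fold and higher in KO. Of the 6 with at least 100 UMIs there, 4 were higher, where 14.4% of 886 genes were higher and 12.8% lower, so the share of genes past the fold was large in both directions. The median log2 ratio was 1.12 over the 6 genes and -0.01 over the 886. *Slpi* was at 2515 CPM in WT and 5612 CPM in KO, a log2 ratio of 1.16 (1.02 to 1.30). *Wfdc17* was at 382 and 969 CPM (1.34, 0.98 to 1.72) and *Cstdc4* at 305 and 724 CPM (1.25, 0.84 to 1.67). *Stfa2l1* was at 160 and 338 CPM (1.08, 0.51 to 1.69). For *Wfdc17*, *Cstdc4* and *Stfa2l1* the interval reaches below a 2-fold difference, with 79, 63 and 33 UMIs in WT. *Cstb* was lower, at 6316 and 4059 CPM, a log2 ratio of -0.64 (-0.75 to -0.53). After thinning, which left out 73 WT and 184 KO cells as too shallow, 61.5% of 96 WT cells and 89.4% of 132 KO cells held *Slpi*. Most neutrophil markers, but not all, went with these genes. Of 11 with at least 100 UMIs, 5 were past the fold and higher in KO and none lower, and the summed level of all 15 was 15577 CPM in WT and 25850.1 CPM in KO. Their part in the result was not tested. *S100a9* and *Csf3r* were among the 5, whereas *Mmp9* (log2 ratio -0.84), *Il1r2* (-0.42) and *Ltf* (-1.60) were lower in KO. *Ngp*, a gene of immature neutrophils, had 64 UMIs in WT and 7 in KO, and *Camp* had 14 and 1. The neutrophil-like cluster shared this, with 746 and 22 UMIs of *Ngp* (log2 ratio -1.85) and 28 and 0 of *Camp*. Of 13 neutrophil markers measured there, *Ngp* was the 1 lower past the fold and none was higher. Their summed level, over all 15, was 50068 CPM in WT and 44806 CPM in KO. In the shallow cluster other marker lists differed too. Summed eosinophil markers were at 179 CPM in WT and 31.9 CPM in KO, and B or plasma cell markers at 498 and 121 CPM. Monocyte markers (445 and 705 CPM) and dendritic cell markers (87.1 and 159 CPM) went the other way. The part of such differences in the ratios was not tested. TMM scaling moved every log2 ratio of this cluster up by 0.59 and those of the neutrophil-like cluster down by 0.25, and the 4 genes kept their sign in both. With cells of at least 1000 UMIs only, *Slpi* (1.13) and *Wfdc17* (1.36) were past the fold, *Cstdc4* was at 0.80, and *Stfa2l1* had under 100 UMIs. For these cells no share over all genes was computed.

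**Figure D3:**
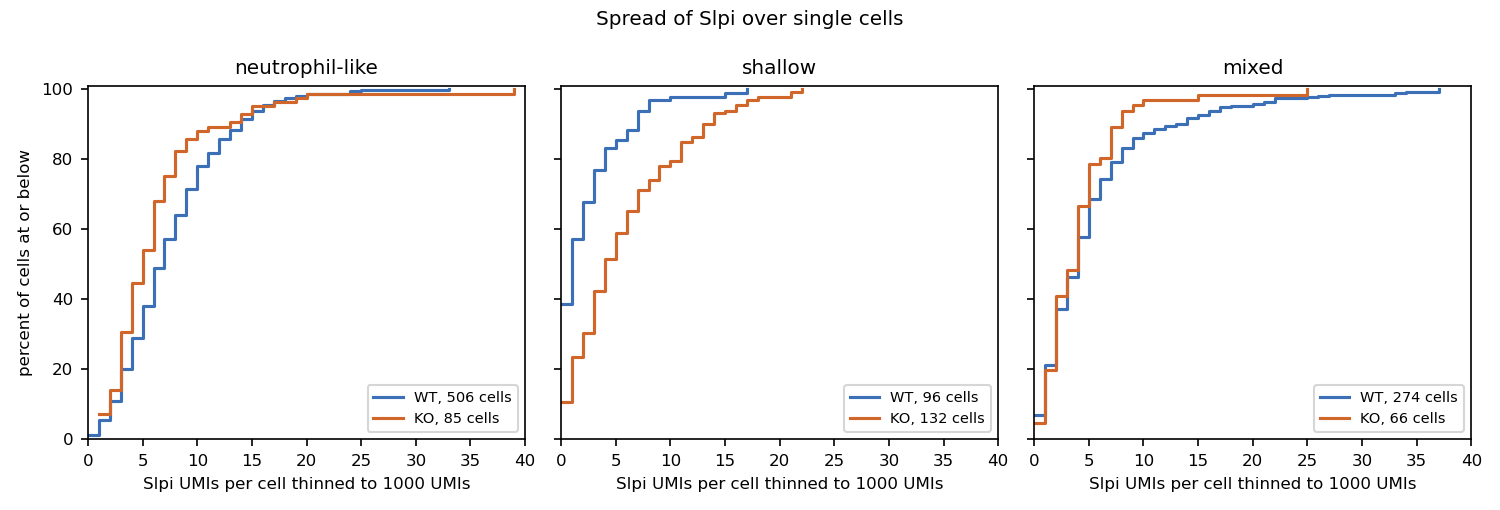
Cumulative percent of cells by the number of *Slpi* UMIs in 1000 UMIs of the cell, for the neutrophil-like, shallow and mixed clusters, WT in blue and KO in orange. In the neutrophil-like cluster the medians were 7 and 5 UMIs, and in the shallow cluster 1 and 4.

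In the mixed cluster 7 of the 8 genes had at least 100 UMIs, and only *Serpinb2* was past the fold, lower in KO with 129 UMIs in WT and 8 in KO (110 and 42.9 CPM, log2 ratio -1.35, -2.59 to -0.33). Of 1923 genes there, 2.39% were lower and 0.936% higher. *Slpi* had a log2 ratio of -0.52, *Wfdc17* of -0.63, *Cstdc4* of -0.54 and *Stfa2l1* of -0.56, and the summed level of neutrophil markers was 20673 CPM in WT and 13699.7 CPM in KO, with 2 of 11 measured lower past the fold. In monocyte-like cells *Stfa2l1* was past the fold and lower (131 and 33 UMIs, log2 ratio -1.15), where 0.897% of 4682 genes were lower and 0.235% higher. Its level of 47.1 CPM in WT there overlapped that of the T-cell-like cluster, 51.8 CPM, as did 21.3 and 12.6 CPM in KO. Over the alternatives its log2 ratio ranged from -1.75 to -0.69. Cluster 2 held 113 of the 131 WT and 28 of the 33 KO UMIs of *Stfa2l1* in this class (log2 ratio -1.20). In cluster 2 *Wfdc17* (-1.11) and *Cstdc4* (-1.10) were also lower past the fold, whereas in cluster 0 *Wfdc17* was at -0.29. No share over all genes was computed for single clusters. In macrophage-like cells *Slpi* (-1.08) and *Cstdc4* (-1.29) were lower past the fold, against 0.622% of 5786 genes lower and 0.242% higher. Neither was past the fold with the highest Scrublet scores removed, 10 components, reciprocal PCA or marker scores, and over the alternatives the ratios reached -0.52 for *Slpi* and -0.67 for *Cstdc4*. In DC-like cells *Slpi* (-1.70) and *Wfdc17* (-1.01) were, against 0.657% of 4873 genes lower and 0.451% higher. Over the alternatives *Wfdc17* ranged from -1.10 to -0.44 there, and *Slpi* from -2.32 to -1.14. In macrophage-like and DC-like cells *Slpi* was below its level in the T-cell-like cluster in both libraries. *Wfdc17* in DC-like cells was at 149 and 74.1 CPM, against 236 and 54.8 CPM in T-cell-like cells, with overlapping intervals in KO. *Cstdc4* in macrophage-like cells was at 23.5 and 9.59 CPM, against 34.5 and 37.9 CPM in T-cell-like cells, with overlapping intervals in WT. The T-cell-like cluster itself had a *Slpi* log2 ratio of -1.25 (151 and 87 UMIs), with 1.64% of 732 genes lower and 0.137% higher. The summed level of the 15 neutrophil markers was lower in KO in each of these classes. It was 4526 and 2859 CPM in monocyte-like cells (5 of 12 measured lower past the fold and 1 higher), 2243 and 1533 CPM in macrophage-like cells (5 of 9 lower), 2079 and 1243 CPM in DC-like cells (5 of 7 lower) and 5745 and 1976 CPM in T-cell-like cells (4 of 5 lower). *Camp* was at 0 in macrophage-like and T-cell-like cells. The part of these markers in the ratios was not tested.

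**Figure D4:**
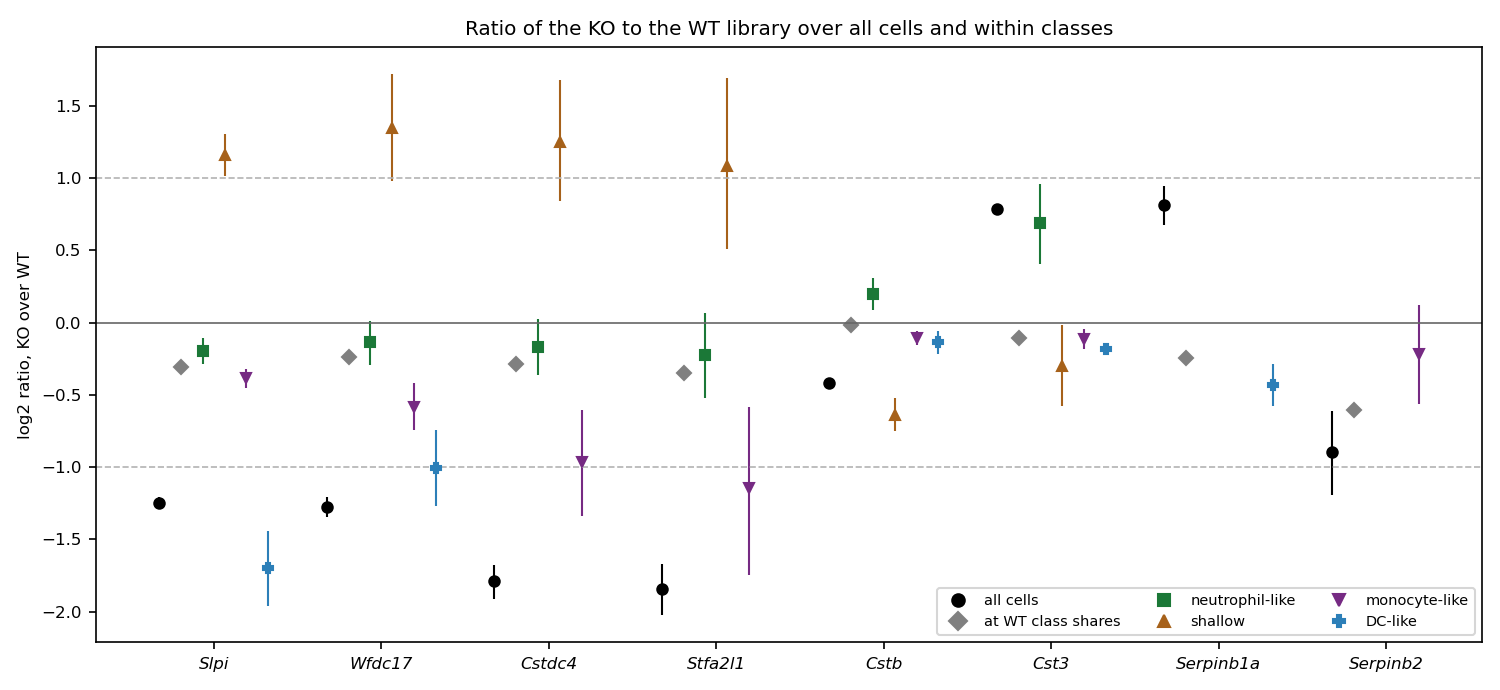
Log2 ratio of the KO over the WT library for each gene, over all cells, at the class shares of WT (no interval) and within 4 classes, with exact 95% intervals for counting error. Dashed lines mark a fold of 2, and genes with under 100 UMIs in a class are not drawn. *Slpi*, *Wfdc17*, *Cstdc4* and *Stfa2l1* lie below -1 over all cells, between -0.22 and -0.14 in the neutrophil-like cluster and above 1 in the shallow cluster.

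*Cstb* encodes stefin B, the broadly made stefin of lysosome-rich cells (chromosome 10, 78425669 to 78427622, plus strand). It was at 3054 CPM in WT and 2287 CPM in KO over all cells, a log2 ratio of -0.42 (-0.44 to -0.39). At least 89.4% of thinned cells of every neutrophil-like, shallow, mixed, monocyte-like and macrophage-like group held a *Cstb* UMI, and 62.3% of WT and 60% of KO DC-like cells did, against 46.4% and 49.5% of T-cell-like cells. In WT the order was the shallow cluster at 6316 CPM, the mixed cluster at 4452 CPM, monocyte-like cells at 3918 CPM, neutrophil-like cells at 3850 CPM, macrophage-like cells at 2694 CPM and DC-like cells at 1163 CPM, with overlapping intervals for monocyte-like and neutrophil-like cells. In KO the mixed, neutrophil-like and shallow clusters overlapped in turn, from 5033 to 4059 CPM. Its log2 ratio was 0.20 (0.09 to 0.31) in neutrophil-like cells, and TMM scaling turned this to -0.05 and a limit of 10% mitochondrial UMIs to -0.01.

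*Cst3* (chromosome 2, 148871722 to 148875692, minus strand) was at 4888 CPM in WT and 8444 CPM in KO over all cells, a log2 ratio of 0.79 (0.77 to 0.80). DC-like cells had 21657.4 CPM in WT and 19118 CPM in KO, a log2 ratio of -0.18 (-0.20 to -0.16), so the level was slightly lower in KO within the class and higher over all cells. DC-like cells held 66.4% of all *Cst3* UMIs in WT and 84.9% in KO. Among them cluster 8, led by *Xcr1* and *Itgae*, had 32342 and 25944 CPM, cluster 10, led by *Laptm4b* and *Il12b*, had 27062 and 22212 CPM, and cluster 3, led by *Tbc1d4* and *Fscn1*, had 11459.9 and 9679 CPM, so cluster 3 stood further from the other DC-like clusters than the libraries from each other, and clusters 8 and 10 did not. Of the 7 classes, macrophage-like cells came next, at 2762 and 2758 CPM, a log2 ratio of -0.00 (-0.05 to 0.04). Neutrophil-like cells had 488 CPM in WT and 786 CPM in KO, and the level in T-cell-like cells was 719.5 and 822 CPM, so neutrophil-like cells did not stand above T-cell-like cells. Whether *Cst3* in T-cell-like cells was free RNA was not tested.

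*Serpinb1a* encodes a serpin that is known to inhibit elastase and cathepsin G of neutrophil granules (chromosome 13, 32842092 to 32851185, minus strand), and its level was highest in cells other than neutrophils here. Neutrophil-like cells had 12 UMIs in 508 WT cells and 5 UMIs in 87 KO cells (7.78 and 30.5 CPM). DC-like cells had 724 and 825 UMIs, or 393 and 291 CPM, a log2 ratio of -0.43 (-0.58 to -0.29), and held 85.2% and 90.0% of all its UMIs. The DC-like clusters differed, with log2 ratios of -0.89 (-1.12 to -0.66) in cluster 8, -0.38 (-0.64 to -0.12) in cluster 3 and 0.00 (-0.30 to 0.31) in cluster 10. After thinning, 20.7% of WT and 15.9% of KO DC-like cells held a UMI, against 0.593% of WT and 2.35% of KO neutrophil-like cells and 3.57% and 10.99% of T-cell-like cells. In the mast-cell-like cluster, with 16 WT and 5 KO cells, it reached 643 and 971 CPM. Over all cells the level was 69.2 CPM in WT and 121 CPM in KO, a log2 ratio of 0.81 (0.67 to 0.95). Its paralogs *Serpinb1b* and *Serpinb1c* were 90.7% and 89.7% identical in the coding sequence and shared none of the 351 stretches of 50 bases at the transcript end.

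*Serpinb2* encodes an inhibitor of the urokinase plasminogen activator (chromosome 1, 107511423 to 107535478, plus strand). It was sparse, with 397 UMIs in WT and 131 in KO, or 32.3 and 17.3 CPM, a log2 ratio of -0.90 (-1.20 to -0.61). Cluster 0 of the monocyte-like cells had 176 and 150 CPM, whereas cluster 2 had 5.70 and 8.90 CPM (9 and 8 UMIs). Within monocyte-like cells the log2 ratio was -0.22 with an interval that includes 0 (-0.57 to 0.12), and a UMI was found in 5.80% of thinned WT and 5.68% of thinned KO cells. In the neutrophil-like cluster 24 UMIs were counted in WT (15.6 CPM) and none in KO, where the interval reached 22.5 CPM. A lower level in KO is therefore not read from these counts. Among thinned cells, 0.988% in WT and 0 of 85 in KO held one. A count of 0 allows a share of cells with a UMI of up to 3.53% by the limit of 3 counts, and the upper end of the exact interval is 4.25%. Its target *Plau* was at 247 CPM in WT and 224 CPM in KO over all cells. Of the 7 classes, its level was highest in the shallow cluster in WT (725 CPM, against 445 CPM in macrophage-like cells) and in macrophage-like cells in KO (666 CPM, against 201 CPM in the shallow cluster).

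The pattern over classes was compared with that of all 8470 genes by Pearson's r of log2(CPM + 10) over 24 points, each a cluster of at least 20 cells in 1 library. The points share libraries and free RNA, and r is given as a description. The most similar genes were *Fpr2* (0.95), *Slc25a37* (0.95) and *Sh3bp5* (0.95) for *Slpi*, *Tmem38b* (0.93), *Hmox1* (0.92) and *Siglece* (0.91) for *Wfdc17*, *Wfdc21* (0.97), *Cxcr2* (0.97) and *Il1rap* (0.97) for *Cstdc4*, and *Rdh12* (0.98), *Upp1* (0.98) and *S100a9* (0.97) for *Stfa2l1*. They were *Atp6v0c* (0.97) and *Fnip2* (0.95) for *Cstb*, *Jag2* (0.96), *Pkib* (0.95) and *Kynu* (0.94) for *Cst3*, *Ly75* (0.98), *Gypc* (0.95) and *Kit* (0.95) for *Serpinb1a*, and *Timp1* (0.87), *Plcb1* (0.86) and *Chil3* (0.86) for *Serpinb2*. Between the 8 genes r was 0.93 for *Cstdc4* with *Stfa2l1*, 0.84 for *Slpi* with *Stfa2l1* and 0.72 for *Cst3* with *Serpinb1a*, and -0.79 for *Slpi* with *Cst3*.

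Other inhibitors of the same families were mostly sparse. Over all 8470 genes with at least 100 UMIs, 2.42% were past the fold and higher, 1.74% lower, and the median log2 ratio was 0.13. Of 14 listed WAP-domain, Kazal and Kunitz inhibitors, 4 had at least 100 UMIs, and 1 was past the fold in each direction over all cells, with a median log2 ratio of 0.54. *Wfdc21*, a WAP-domain gene 40671 bases from *Wfdc17*, was lower (204 CPM in WT and 46.4 CPM in KO, log2 ratio -2.14), with 1089 and 834 CPM in neutrophil-like cells. *Spint2*, a Kunitz inhibitor known from epithelia, was higher (25.2 and 64.0 CPM, 1.35). Its level was 123 and 139 CPM in DC-like cells. In the epithelial-like cluster, with 18 WT and 12 KO cells, it was 423 and 919 CPM. *Spint1* (407 and 475 CPM, 0.22) and *Wfdc18* (8.39 and 15.2 CPM, 0.86) were not past the fold. *Wfdc13* had 67 UMIs. Of 20 listed stefins, cystatins and calpastatin, 3 had at least 100 UMIs and none was past the fold, with a median of 0.63. They were *Cast*, the calpain inhibitor, at -0.21, *Csta2* at 0.92 and *Cst7*, cystatin F, at 0.63 on the log2 scale, and *Csta3* had 59 UMIs. Of 41 listed serpins 9 had at least 100 UMIs and 2 were higher past the fold, with a median of 0.56. These were *Serpinb9*, the granzyme B inhibitor (316 and 650 CPM, 1.04), and *Serpinb6b* (148 and 338 CPM, 1.19). Both had their highest level in DC-like cells, where *Serpinb9* was at 1866 CPM in WT and 1655 CPM in KO and *Serpinb6b* at 943 and 887 CPM. *Serpinb6a* (0.00), *Serpinb8* (0.22) and *Serpinb9b* (1.00) completed the 5 serpins with the most UMIs, and *Serpinb9b* was just under the fold.

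None of the cysteine proteases that stefins and cystatins bind was past the fold over all cells, with 9 of 9 measured and a median log2 ratio of -0.18. Of 8470 genes, 1.74% were lower past the fold and 2.42% higher. *Ctsb* was at 4069 CPM in WT and 2955 CPM in KO (log2 ratio -0.46), *Ctss* at 3368 and 2792 CPM (-0.27) and *Ctsl* at 812 and 718 CPM (-0.18), and these 3 had their highest level in macrophage-like cells. *Ctsb* was also found in neutrophil-like cells, at 3005 and 3009 CPM. *Ctsc* (-0.19), *Ctsk* (-0.20), *Lgmn* (-0.10), *Ctsh* (0.01), *Ctsz* (0.02) and *Ctsf* (0.27) made up the rest. Of 10 serine proteases only *Plau* (-0.14) and *Gzmb* (0.34) had at least 100 UMIs. *Elane*, which encodes neutrophil elastase, had no UMI in either library, which allows up to 0.244 CPM in WT and 0.397 CPM in KO, *Prtn3* had 5 in WT and 3 in KO, and *Ctsg* had 4 and 0, so the granule proteases that *Slpi* and *Serpinb1a* products block were at or near 0 as transcripts in cells that held *Slpi*. These transcripts are known to be made in bone marrow precursors and not in mature neutrophils.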

How the data were processed

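CD11b+ and CD11c+ cells of AOM- and DSS-treated mice were sequenced as 1 WT and 1 *Clec7a*-/- library. The authors deposited UMI counts for each gene in each barcode, as whole numbers that had not been normalized. The submitters' processing notes name Cell Ranger 2.1.1 and mm10. Methods name the SeekOne MM 3′ kit, whereas a sample description names another platform. Counts of near-identical gene copies depend on how reads with several matches were treated, which is not given in the sources used here. The 8 genes, the lists of related genes and several markers were chosen with earlier results of these data known. The gene *Clec7a* was not analysed here.

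Cells with 200 to 4000 genes and no more than 5% mitochondrial UMIs entered, with 12283285 WT and 7559096 KO UMIs. Counts were log-normalized in Seurat 5.3.0 (R 4.3.3), and clusters were drawn from 2000 variable features, less the genes compared and sex-linked genes, on 20 principal components at a resolution of 0.7. Doublets were not removed. Scrublet (Scanpy 1.11.5) called 0 WT and 2 KO doublets, so the 5% of cells with the highest scores were removed as an alternative. A cluster was named from the marker list with the most genes 2-fold over the other cells, unless another list had 3 or more and at least 0.5 times as many (mixed), or its median depth was under 1 in 3 of the median of either library with none of the markers among its 10 leading genes (shallow). Levels used summed UMIs with exact Poisson intervals, ratios exact conditional intervals and shares Clopper-Pearson intervals after thinning each cell to 1000 UMIs (NumPy 2.4.6, SciPy 1.17.1). UMIs of 1 library are not replicates, so intervals cover counting error only and no p-value was computed. Named genes were the 8 genes, the 5 most counted relatives of each family with those past a fold of 2 among genes with at least 100 UMIs, the proteases with at least 100 UMIs, and the 3 genes with the most similar pattern for each, of which 1 is not reported here. Of the gene lists, *BC005561* was listed in error and 4 older symbols repeated other entries, and these were not counted. Positions came from GENCODE M21 and RefSeq on GRCm38, and 32158 of 32285 identifiers matched M21. Ratios and intervals were tested on simulated data. Alternatives changed the filters, doublets, scaling (TMM from edgeR 4.0.16, median of ratios), clustering, thinning, classes and weights of cells.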

Additional observations from a re-analysis of the deposited data

Results flagged for a closer look

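The 4 genes past the fold in the shallow cluster had ratios of the opposite sign in monocyte-like cells. Their ratios were also negative in the mixed cluster and, at a small size, in the neutrophil-like cluster. In the shallow cluster the log2 ratio of KO over WT was 1.16 for *Slpi*, 1.34 for *Wfdc17*, 1.25 for *Cstdc4* and 1.08 for *Stfa2l1*, and in monocyte-like cells it was -0.39, -0.58, -0.97 and -1.15. The *Stfa2l1* level in monocyte-like cells overlapped that in T-cell-like cells in both libraries (47.1 and 51.8 CPM in WT, 21.3 and 12.6 CPM in KO). The *Cstdc4* level overlapped it in KO (52.9 and 37.9 CPM) and not in WT (103 and 34.5 CPM). Among monocyte-like cells, *Slpi* and *Wfdc17* were at -0.26 and -0.29 in cluster 0 and at -0.75 and -1.11 in cluster 2. The difference between the classes was not tested, since each genotype is 1 library. *Cstb* (0.20 in neutrophil-like cells and -0.64 in the shallow cluster) and *Cst3* (0.69 in neutrophil-like and -0.18 in DC-like cells) also differed in sign between classes, with no difference tested. The *Cst3* level in neutrophil-like cells did not stand above that in T-cell-like cells, where its source was not tested. The summed level of the 15 neutrophil markers went the same way, with a log2 ratio of 0.73 in the shallow cluster and -0.66 in monocyte-like cells, and its part in the difference was not tested. With 10 or 30 principal components, or with cells of up to 10% mitochondrial UMIs, 481 of the 485 shallow cells fell into a class named neutrophil-like, and under reciprocal PCA 258 of them fell into a cluster named epithelial-like.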

How the results depend on the processing

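Over all cells, every ratio of the 8 genes kept its direction under the 10 alternatives run, and the 4 genes lower past the fold became 2 with the mean over cells and 5 with TMM, median-of-ratios scaling, 10% mitochondrial UMIs or no filter on cells. The neutrophil-like cluster had none past the fold under any alternative, also where shallow cells joined it. In the shallow cluster 2 in place of 4 were higher among cells with at least 1000 UMIs. No cluster met its criterion at 10% mitochondrial UMIs, with Scrublet, a higher resolution, 10 or 30 components, reciprocal PCA or marker scores. In the mixed cluster 10 components gave 3 lower and 1 higher in place of 1 and 0. In monocyte-like cells the 1 gene lower became 0 with Scrublet and 2 at 10% mitochondrial UMIs, a higher resolution, 10 components, the mean over cells and TMM. In macrophage-like cells the 2 genes became 0 with Scrublet, 10 components, reciprocal PCA and marker scores and 1 with either resolution, 30 components and the mean over cells. In DC-like cells 2 became 1 with Scrublet, 10 components, marker scores, cells of at least 1000 UMIs and the mean over cells. In T-cell-like cells 1 lower became 0 at 10% mitochondrial UMIs, and marker scores gave 1 higher in place of 0. The cause of these moves was not tested. No share over all genes was computed under these alternatives, so the changed counts are not read as a result about the 8 genes. Within classes 372 of 386 alternative ratios kept their direction.

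Thinning to 500 UMIs, to 2000 UMIs or not at all gave 42.7%, 60.1% and 66.4% of WT cells with *Slpi*, and 29.5%, 28.9% and 45.6% of KO cells, in place of 52.7% and 33.0%. In neutrophil-like cells thinning to 500 UMIs gave 91.7% in WT and 88.5% in KO, and no thinning 99.8% in WT. Genes past the fold and higher in KO over all cells were 5.51% with at least 20 UMIs and 10.2% at a fold of 1.5, and those lower 5.76% at a fold of 1.5. No paired analysis was possible because each genotype has 1 library, and no replicate could be left out. Outside their leading classes, *Serpinb1a* and *Serpinb2* each had under 100 UMIs in both libraries together, which limits their ratios there.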
